A study of Mus musculus with 2 samples.

Results

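The 9 smooth muscle contractile genes Acta2, Tagln, Myl9, Cnn1, Myh11, Actg2, Tpm1, Tpm2 and Cald1 were followed in single cells of mouse flank skin at embryonic day E13.5. They were taken by symbol from the features of the count matrices, which list all 9 among 32286 features. They were taken by name, with no threshold on level. There was 1 mutant library and 1 control library. The mutant embryos came from crosses of Axin2CreER mice, in which a hormone-inducible Cre recombinase is expressed from Axin2, a gene that Wnt-responding cells use, with Rosa-lox-STOP-lox-SmoM2YFP mice. After Cre removes the stop cassette, that allele makes SmoM2, an always-active form of the Hedgehog transducer Smoothened, fused to a yellow fluorescent protein. Recombination can reach any cell that used Axin2 when Cre was active, and the time of induction is not given in the sources used here. The control embryos were littermates. The title of the control library names SmoM2YFP alone, and its other alleles are not given in the sources used here. The genotype entries of the 2 libraries run against their titles, and the groups here follow the titles. The eYFP transcript stood at 28.8 CPM in mutant dermal cells and 0.413 CPM in control dermal cells, and Ptch1, a direct Hedgehog target, at 246.1 and 5.53 CPM, so both transcripts go with the titles.

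Smooth muscle contracts when myosin filaments pull on actin filaments. Acta2 (smooth muscle α-actin) and Actg2 (smooth muscle γ-actin) make the thin filament, and Tpm1 and Tpm2 (tropomyosins) lie along it. Cald1 (caldesmon) and Cnn1 (calponin) bind actin and restrain the myosin motor, and Tagln (transgelin, SM22α) bundles actin. Myh11 is the smooth muscle myosin heavy chain and Myl9 a regulatory myosin light chain, whose phosphorylation starts contraction. Most of these genes are controlled by serum response factor (SRF) through CArG boxes, with its cofactors of the myocardin family. Myh11 and Cnn1 are marks of mature smooth muscle, while Acta2, Tagln and Myl9 are also made by pericytes and by contractile fibroblasts. Tpm1, Cald1 and, at lower levels, Tpm2 also have non-muscle products that many mesenchymal cells use. In skin, mural cells wrap the vessels, and the dermal sheath and the arrector pili muscle of later hair follicles use the same genes.

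Promoter stretches of Acta2 and Myl9 are shown because these genes were among those that differed most between the libraries and because their windows hold CArG-like motifs. RefSeq start sites were matched for 6 of the 9 genes, in 7 windows. Each window is the 250 bases before the RefSeq start, and was searched for CArG boxes (up to 1 substitution in the 6 central A or T bases, on either strand). GENCODE places the start of both genes further upstream, so that 217 of the 250 bases for Acta2 and 44 for Myl9 lie inside the gene in that annotation. The sequences are the 30 bases around each Acta2 motif and the 206 bases of the Myl9 window that lie outside the gene in both annotations, 5′ to 3′ on the strand of the gene, with the motifs in capitals.
Acta2, chr19:34255438-34255467, GRCm38.p6, minus strand: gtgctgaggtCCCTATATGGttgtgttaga
Acta2, chr19:34255388-34255417, GRCm38.p6, minus strand: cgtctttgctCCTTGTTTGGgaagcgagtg
Myl9, chr2:156775214-156775419, GRCm38.p6, plus strand: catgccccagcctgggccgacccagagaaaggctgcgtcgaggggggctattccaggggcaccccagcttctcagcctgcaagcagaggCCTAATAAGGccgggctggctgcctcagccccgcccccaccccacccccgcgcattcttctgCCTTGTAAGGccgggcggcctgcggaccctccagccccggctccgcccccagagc
The Acta2 window holds 2 such motifs, CCCTATATGG beginning 84 bases and CCTTGTTTGG beginning 34 bases before the RefSeq start, with 1 substitution each. The Myl9 window holds the exact motif CCTAATAAGG 161 bases before the RefSeq start, and CCTTGTAAGG with 1 substitution at 99 bases. The windows of Cnn1, Tpm1, Tpm2 and Cald1 held none within this span. Among 32851 promoter windows of the same length, 8.59% held a CArG box with up to 1 substitution and 1.47% an exact one. The 9-base core motif of the GLI factors, TGGGTGGTC on either strand, was in 0 of the 7 windows of these genes and in 0.225% of all windows.

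Skin of 2 to 3 embryos was pooled per library, so no difference between the libraries has a replicate check and no p-value is given. Intervals below are 95% intervals that cover counting error only. The mutant matrix held 11909 barcodes with 73809828 UMIs and the control matrix 13566 barcodes with 109629368 UMIs. After barcodes with under 1000 genes, over 10% mitochondrial UMIs or a doublet call were left out, 8514 mutant and 11527 control cells remained, with medians of 6662 and 7442 UMIs, and 37 barcodes occurred in both libraries. Cells of both libraries were clustered together with the 9 genes left out, so that their levels had no part in the classes. There were 5145 mutant and 8714 control dermal-like cells, and 123 mutant and 166 control mural-like cells. Most mutant dermal cells lay in clusters 3, 5 and 8, and most control dermal cells in clusters 0, 1, 2, 6, 7 and 12. Levels are the UMIs of a class scaled to a total of 1000000 UMIs per class (CPM). A gene was counted as higher or lower where it reached 10 CPM in at least 1 of the groups and differed at least 1.5-fold. Shares of all genes use this rule, which lets in genes that pass through 1 group only. Where a count of listed genes asks for 10 CPM in both groups, the share of all genes beside it has a wider basis.

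The mural class was named from markers that are not among the 9 genes, so the levels of those markers describe the class and are no separate check of its name. Rgs5, a pericyte regulator of G-protein signals, had 68.7 CPM in mural and 0.310 CPM in dermal cells of the mutant library. Ndufa4l2 had 160.3 and 0.774 CPM there, and the potassium channel genes Abcc9 and Kcnj8 had 83.7 and 127.7 CPM in mural against 4.92 and 15.6 CPM in dermal cells. Pdgfra, a fibroblast receptor, had 14.1 CPM in mural and 104.7 CPM in dermal cells. Of 12 mural markers, 10 reached 10 CPM in mural cells. Higd1b and Vtn did not, with 6 and 2 UMIs in the mutant library and 4 UMIs each in the control library. Col1a1, a fibroblast collagen, was still at 525.8 CPM in mutant mural cells, against 986.9 CPM in mutant dermal cells, and how much of this is RNA from other cells was not tested.

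Acta2, Tagln, Myl9 and Tpm2 were at least 1.5-fold higher in mural than in dermal cells of both libraries, and Cald1 in the control library. The mural over dermal ratios of Acta2, Tagln and Myl9 were smaller in the mutant library, a difference for which there is no replicate check. In the mutant library, Acta2 stood at 1910 CPM in mural and 481.8 CPM in dermal cells, a ratio of 3.97 (3.79 to 4.15). Tagln was 2.09-fold, Myl9 1.81-fold and Tpm2 1.64-fold higher in mural cells there, and Tpm1 (1.35-fold) and Cald1 (1.18-fold) lay within 1.5-fold. Thus 4 of the 6 genes with at least 10 CPM in both classes were higher in mural cells, beside 8.78% of all 8281 genes measured, with 17.1% of genes lower and none of the 6. In the control library, Acta2 stood at 2091 CPM in mural and 126.6 CPM in dermal cells, a ratio of 16.5 (15.9 to 17.1). Tagln was 11.3-fold, Myl9 3.95-fold, Tpm2 2.06-fold and Cald1 1.72-fold higher in mural cells there, and Tpm1 (1.28-fold) lay within 1.5-fold. That made 5 of 6 higher, beside 9.14% of all 8241 genes, with 18.3% of genes lower and again none of the 6.

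Myh11 and Actg2 passed the minimum only through mural cells, so a difference was built into their passing. Myh11 had 27.3 CPM in mural and 1.24 CPM in dermal cells of the mutant library, and 17.9 and 0.556 CPM in the control library. Actg2 had 41.4 CPM in mural and 2.32 CPM in dermal cells of the mutant library, and 39.7 and 0.191 CPM in the control library, the last of these from 12 UMIs. Cnn1 was scarce in every class, with 6 UMIs in the mural cells of each library. The levels of Myh11 and Actg2 are therefore given as a description, and the counts of higher genes above leave both out.

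**Figure D1:**
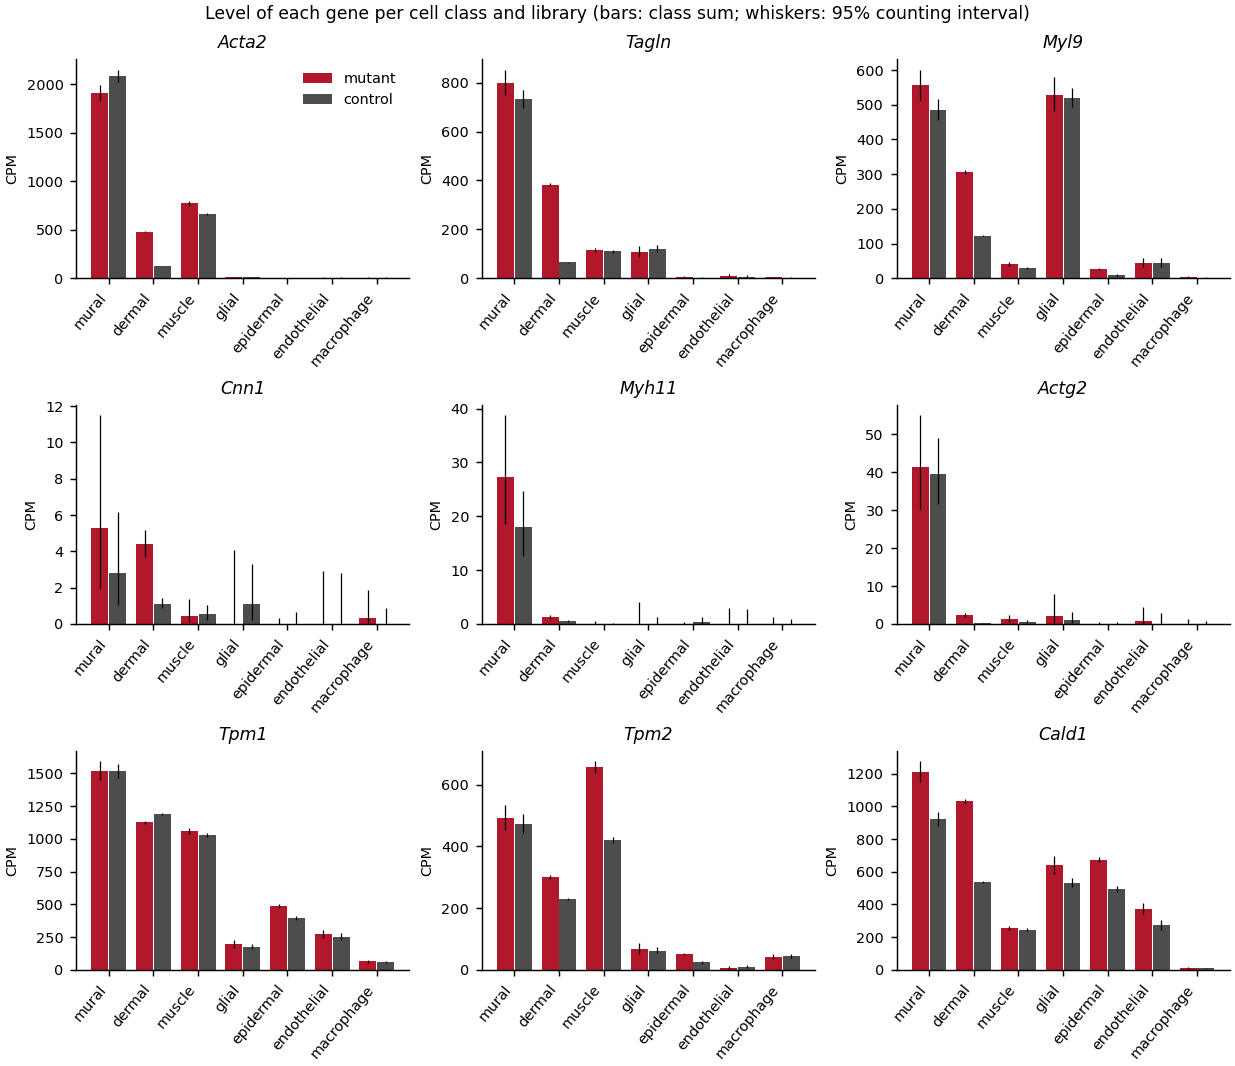
Level of each of the 9 genes in CPM in 7 cell classes of the mutant (red) and the control library (grey), as bars with exact Poisson 95% intervals. For Acta2, Tagln and Myl9 the mutant dermal bar stands well above the control dermal bar (481.8 against 126.6 CPM for Acta2), while the mural bars are close together.

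In dermal cells, 4 of the 6 contractile genes with at least 10 CPM in both libraries were higher in the mutant and none lower, against 4.45% of 8156 genes measured that were higher and 4.84% that were lower. Their median log2 ratio was 1.13, against 0.01 over all genes measured. Among the filament genes, Acta2 had 481.8 CPM in mutant and 126.6 CPM in control dermal cells (15555 and 7969 UMIs), or a ratio of 3.81 (3.70 to 3.91). Tpm1 had 1127 CPM in mutant and 1189 CPM in control dermal cells, or a ratio of 0.948 (0.936 to 0.960), and Tpm2 had 300.2 and 229.4 CPM, a ratio of 1.31. Transcripts of both tropomyosin genes therefore lay within 1.5-fold while those of Acta2 were well apart between the libraries. Counts per gene do not separate the muscle from the non-muscle products of Tpm1 and Tpm2.

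Of the actin-binding genes, Tagln differed most, with 382.6 CPM in mutant and 64.8 CPM in control dermal cells (12352 and 4076 UMIs), or a ratio of 5.91 (5.70 to 6.12). Cald1 had 1031 CPM in mutant and 536.2 CPM in control dermal cells, or a ratio of 1.92 (1.89 to 1.95). Cnn1 was far lower than the minimum in both, at 4.40 CPM in mutant and 1.13 CPM in control dermal cells (142 and 71 UMIs), or a ratio of 3.90 (2.91 to 5.26). On the myosin side, Myl9 had 307.0 CPM in mutant and 123.1 CPM in control dermal cells, or a ratio of 2.49 (2.42 to 2.57). The heavy chain gene Myh11 was hardly caught in the dermis, at 1.24 CPM in mutant and 0.556 CPM in control cells (40 and 35 UMIs), a ratio of 2.23 (1.38 to 3.61). Actg2 was likewise rare, at 2.32 and 0.191 CPM (75 and 12 UMIs), a ratio of 12.2 (6.58 to 24.6). Reads of the near-identical actin genes may be assigned to one another, so the low Actg2 counts in cells rich in Acta2 are uncertain. Tagln lies opposite Pcsk7, which had 11.0 CPM in mutant and 11.2 CPM in control dermal cells, and Gm48529 (1.24 and 0.365 CPM); whether counting used strand is not given, so their reads and those of Tagln may mix.

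Mural cells of the libraries did not differ in this way. There Acta2 had 1910 CPM in mutant and 2091 CPM in control mural cells, a ratio of 0.914 (0.868 to 0.962), Tagln 799.7 and 731.4 CPM (1.09), and Myl9 556.6 and 485.9 CPM (1.15). Cald1 had 1212 CPM in mutant and 921.7 CPM in control mural cells (1.32), while Actg2 and Tpm2 both had ratios of 1.04 and Tpm1 stood at 1522 and 1517 CPM. Myh11 alone passed 1.5-fold, at 27.3 and 17.9 CPM, but it rests on 31 and 38 UMIs and its ratio of 1.52 has an interval of 0.915 to 2.51. That is 1 of 8 genes measured in mural cells, where 7.44% of all 7832 genes were higher and 6.05% lower. The call for Myh11 was lost when doublets were kept, when at least 1500 genes per barcode were asked for, when the 9 genes were allowed into the clustering and with TMM scaling. The mural classes also differed in their markers. Rgs5 had 68.7 CPM in mutant and 38.7 CPM in control mural cells, Abcc9 83.7 and 51.0 CPM, and Ndufa4l2 160.3 and 110.0 CPM. Of the mural markers, only Cox4i2 (192.0 and 227.1 CPM) and the scarce Vtn were higher in control mural cells. Col1a1 had 525.8 CPM in mutant and 759.8 CPM in control mural cells. The part of these differences in the mural ratios was not tested.

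**Figure D2:**
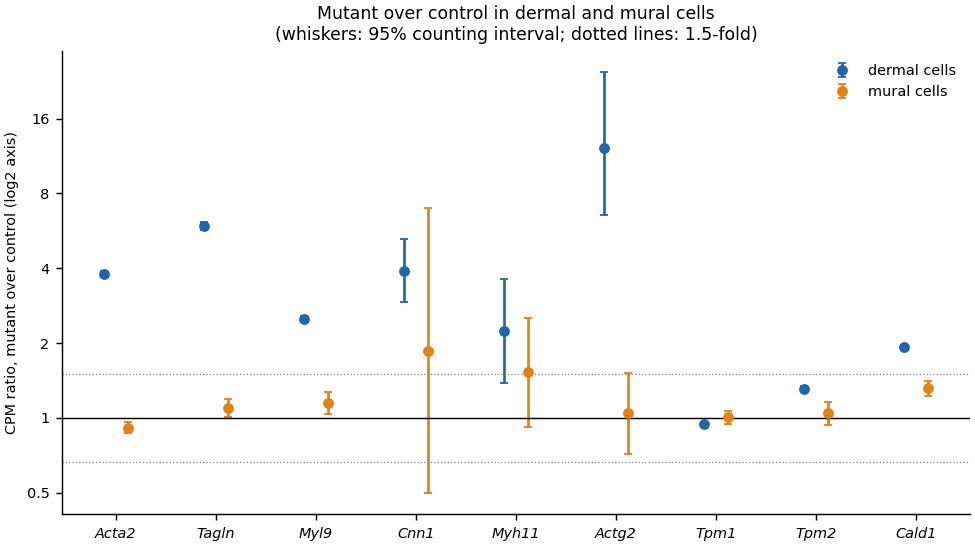
Mutant over control ratio (log axis) of each of the 9 genes in dermal and in mural cells, with exact 95% intervals for counting error, a line at 1 and dotted lines at 1.5-fold either way. Acta2, Tagln, Myl9 and Cald1 lie above 1.5 in dermal cells, and their mural ratios lie between 0.914 and 1.32.

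Outside the dermal class, the genes that were higher in the mutant library differed by class. In muscle cells, which make Acta2 during early development, Acta2 had 771.8 CPM in mutant and 664.6 CPM in control cells, and Tagln 114.0 and 109.8 CPM. Only Tpm2 passed 1.5-fold there, with 657.5 and 420.4 CPM (1.56-fold), beside 2.34% of all genes that were higher and 1.1% that were lower. In epidermal cells, Tpm2 had 50.5 CPM in mutant and 23.8 CPM in control cells (2.12), beside 4.02% of all genes that were higher and 2.73% that were lower, and Tpm1 had 488.2 and 395.0 CPM (1.24). Myl9 reached the minimum only in mutant epidermal cells, at 26.9 against 9.82 CPM. In glial cells, which were rich in Myl9 (529.2 CPM in mutant and 520.9 CPM in control cells), 0 of 6 measured genes passed 1.5-fold, where 8.2% of all genes were higher and 5.72% lower. Acta2 was low in mutant and control endothelial cells (5.50 and 4.61 CPM) and macrophages (7.02 and 6.44 CPM). Barcodes of the erythroid class (261 mutant and 63 control) had 231.7 CPM of Tagln in mutant and 34.5 CPM in control cells, 265.5 and 121.5 CPM of Acta2, and 167.0 and 59.4 CPM of Myl9. How much of this RNA came from other cells was not tested.

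To compare shares of cells, each cell was thinned to 3000 UMIs, which left out 349 mutant and 287 control dermal cells with fewer. An Acta2 UMI was then found in 42.1% of 4796 mutant dermal cells (40.6 to 43.5%) and in 20.2% of 8427 control dermal cells (19.4 to 21.1%). Without thinning the shares were 51.1% and 31.0%. For Tagln the thinned shares were 46.8% and 12.6%, for Myl9 46.5% and 26.0%, for Cald1 91.4% and 74.5%, for Tpm2 51.8% and 44.4%, and for Tpm1 85.3% and 82.3%. Cnn1 was found in 1.21% of mutant and 0.297% of control dermal cells, Actg2 in 24 and 4 of the thinned cells, and Myh11 in 0.334% and 0.166%. Among epidermal cells, which are not known as a source of Acta2, 1.39% of mutant and 1.09% of control cells had an Acta2 UMI, with unthinned medians of 7657 and 9784 UMIs. Tagln was found in 1.32% of mutant and 0.182% of control epidermal cells, and Myl9 in 7.97% and 2.55%, so for these genes this background share was itself larger in mutant cells. The shares of all 3 genes in dermal cells were above it in both libraries. Acta2 was found in 84.3% of mutant and 80.7% of control mural cells, and Tagln in 58.7% and 53.6%.

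Acta2, Tagln and Myl9 were found together in 18.8% of mutant dermal cells (903 of 4796) and 3.01% of control dermal cells (254 of 8427). The same 3 transcripts together were in 42.1% of mutant and 33.1% of control mural cells. They were in 0 of 1368 mutant and 0 of 549 control epidermal cells, which at a floor of 3 counts allows shares of up to 0.219% and 0.546%. The mutant dermis thus held many cells with all 3 transcripts, though at a lower share than mural cells.

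The difference was present within dermal clusters that both libraries filled. There were 6 such clusters with at least 50 cells of each library. Tagln was at least 1.5-fold higher in the mutant cells of all 6 (1.67- to 6.86-fold), Acta2 in 5 (1.30- to 5.59-fold), Myl9 in 4 (1.36- to 2.73-fold) and Cald1 in 2 (1.02- to 1.95-fold). Tpm1 passed in none (0.863- to 1.38-fold) and Tpm2 in 1 (0.901- to 1.54-fold). The share of all genes that passed 1.5-fold within each cluster was not counted, so these counts have no background beside them. In cluster 2, led by Nrgn, Calb1 and histone genes, Acta2 had 335.9 CPM in 92 mutant cells and 60.1 CPM in 1288 control cells. In cluster 13, led by Sfrp2 and Ebf2, it had 238.4 CPM in 217 mutant cells and 183.4 CPM in 575 control cells, the smallest ratio of the 6. Among the clusters that control cells filled, Acta2 ran between 27.3 CPM in cluster 6, led by Calb1 and Nrgn, and 234.2 CPM in cluster 0, led by Ogn and Angptl1, so the control dermis was itself uneven. Ptch1 was 2.27- to 4.71-fold and the hemoglobin gene Hbb-bs 2.27- to 16.2-fold higher in the mutant cells of all 6 clusters. From few UMIs, eYFP had 8.19 CPM in mutant and 0.361 CPM in control cells of cluster 0, and 7.85 and 0.0873 CPM in cluster 2. The interval of its ratio reached below 1 in clusters 1 and 11. Gal had 34.5 and 1.66 CPM in cluster 2 and 0 UMIs in cluster 7. The part of these transcripts in the result of the 6 clusters was not tested. With these clusters alone, each weighted equally, the ratios were 2.65 for Acta2, 3.37 for Tagln, 1.78 for Myl9 and 1.31 for Cald1, so that Cald1 no longer passed 1.5-fold.

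**Figure D3:**
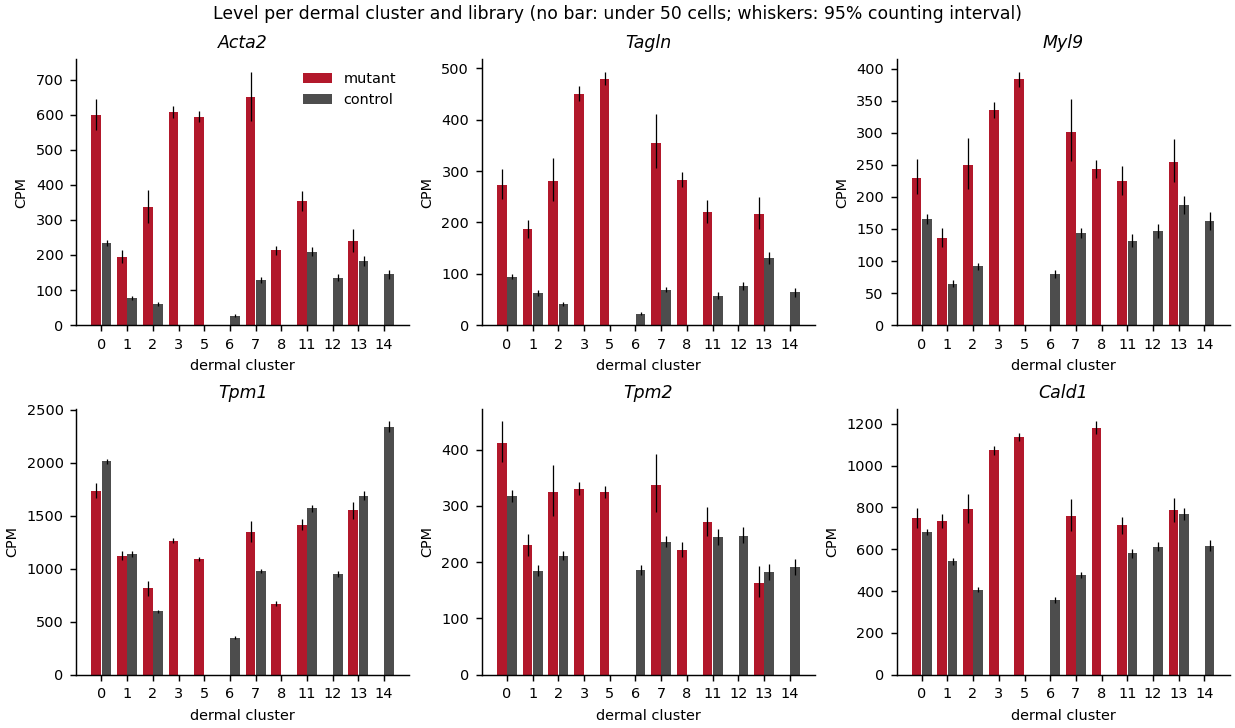
Levels of 6 of the genes in CPM by dermal cluster in the mutant (red) and the control library (grey), as bars with exact Poisson 95% intervals, for clusters in which the library had at least 50 cells. In the clusters that both libraries filled, Tagln was 1.67- to 6.86-fold higher in mutant cells.

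Most mutant dermal cells were in 3 clusters that the control library hardly filled. Cluster 3 (1368 mutant cells, led by Fxyd7 and the Hedgehog target Hhip) had 607.2 CPM of Acta2, 450.3 CPM of Tagln and 335.2 CPM of Myl9. Cluster 5 (1279 mutant cells, led by Hhip, Ptch1 and Foxd1) had 594.3, 479.9 and 383.2 CPM of these genes. Cluster 8 (986 mutant cells, led by Gal, Cdkn1a and Foxd1) had 213.0, 282.8 and 243.4 CPM. Ptch1 had 260.9 CPM in cluster 3, 322.0 CPM in cluster 5 and 419.4 CPM in cluster 8. Cald1 was similar in the 3 clusters, at 1073, 1136 and 1181 CPM. After thinning, 54.8% of the cells of cluster 3, 48.8% of cluster 5 and 18.6% of cluster 8 had an Acta2 UMI, and these clusters held 35.4%, 30.4% and 8.33% of all mutant dermal cells with Acta2.

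Within the mutant dermis, Acta2 was not highest in the cells with most Ptch1. In cells with 0, 1, 2 and at least 3 Ptch1 UMIs (2790, 1111, 532 and 363 cells), Acta2 stood at 467.5, 412.8, 334.6 and 259.0 CPM. Tagln stood at 346.5, 367.2, 355.9 and 268.1 CPM over these ranges, and Myl9 at 276.8, 311.4, 285.1 and 233.2 CPM. Tpm1 went down in order, at 1210, 985.6, 856.5 and 725.4 CPM. Cald1 did not, at 900.7, 1109, 1164 and 1129 CPM. Mutant dermal cells with a UMI of eYFP (367 cells) had 489.6 CPM of Acta2 and those without (4429 cells) 418.9 CPM.

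Mutant cells in which no UMI of the Hedgehog targets Ptch1, Gli1 and Hhip or of eYFP was caught also had these transcripts above control levels. Among thinned mutant dermal cells, the 2751 with such a UMI had 426.1 CPM of Acta2, 374.7 CPM of Tagln, 302.3 CPM of Myl9 and 1108 CPM of Cald1. The 2045 cells with none of these had 421.8, 308.4, 255.7 and 844.3 CPM. The 8117 control dermal cells with none had 123.2, 62.3, 121.2 and 537.7 CPM. Over all UMIs, cells with none of these transcripts (1705 mutant and 7977 control cells) had mutant over control ratios of 2.94 for Acta2, 4.10 for Tagln, 1.78 for Myl9 and 1.45 for Cald1, which then lay within 1.5-fold. A cell with no such UMI may still have responded, since a transcript can be missed at this depth.

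Cells with genes of the dermal condensate, the cell cluster that forms beneath a hair placode, had less Acta2. Of 13 condensate genes, mutant dermal cells with 0, 1, 2 and at least 3 detected numbered 1859, 1535, 662 and 740. The 13 were Foxd1, Gal, Sox2, Sox18, Tbx18, Cdkn1a, Trps1, Bmp4, Bmp7, Inhba, Prdm1, Rspo3 and Tgfb2. Over these ranges Acta2 stood at 536.8, 484.0, 343.9 and 89.6 CPM, Tagln at 388.7, 365.5, 335.3 and 210.4 CPM, and Tpm1 at 1312, 1133, 995.5 and 476.1 CPM. Tpm2 went the same way, at 329.7, 296.9, 283.5 and 175.2 CPM, and Myl9 stood at 284.2, 298.2, 312.2 and 218.9 CPM. Cald1 went up in order, at 915.5, 1015, 1046 and 1110 CPM, and so did Ptch1, at 148.1, 219.8, 283.5 and 495.5 CPM. Hemoglobin transcripts summed to 1334, 1128, 1009 and 925.2 CPM over the ranges, and their part in this order was not tested. Control dermal cells (4548, 2835, 874 and 170 cells) had 145.6, 104.8, 77.0 and 56.9 CPM of Acta2 over the same ranges. There Cald1 went down with the number of condensate genes, at 560.6, 515.6, 494.7 and 445.1 CPM. In the 8415 control dermal cells without an eYFP UMI, the 13 genes summed to 252.3 CPM. Foxd1 had only 0.673 CPM and Gal 0.594 CPM among them, so the control ranges rest mostly on other genes of the list. Lef1, a transcription factor of the Wnt pathway that was not among the 13, gave a similar order: mutant dermal cells with Lef1 (682 cells) had 125.1 CPM of Acta2, and those without (4114 cells) 473.9 CPM. Tagln was less far apart between these cells, at 232.2 CPM with Lef1 and 365.3 CPM without.

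**Figure D4:**
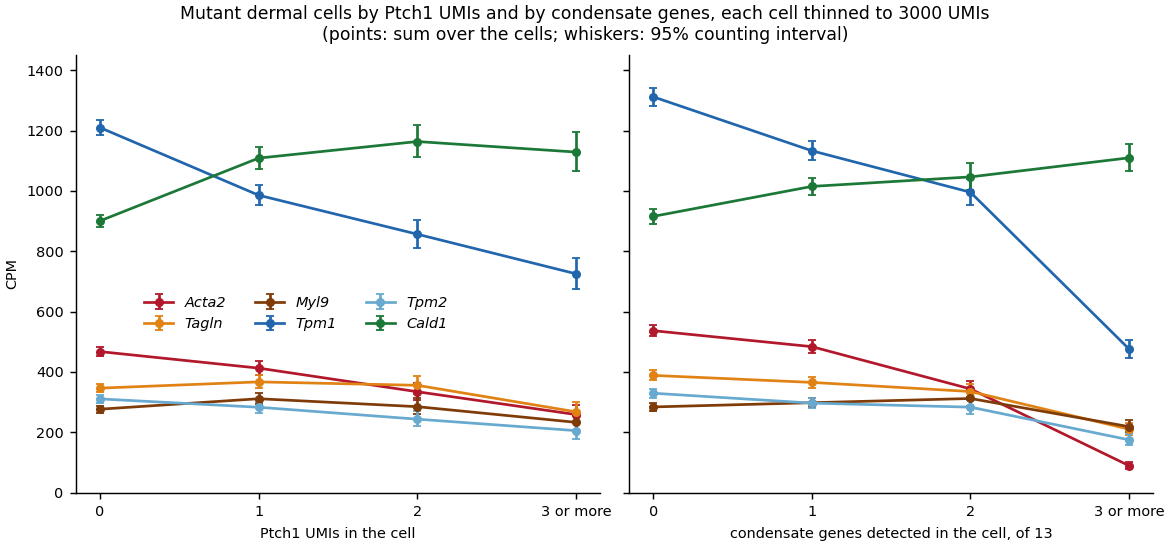
Levels of 6 of the genes in CPM in mutant dermal cells thinned to 3000 UMIs, by the number of Ptch1 UMIs (left) and by the number of condensate genes detected (right), with exact Poisson 95% intervals. Acta2 is 89.6 CPM in cells with at least 3 condensate genes and 536.8 CPM in cells with none, while Cald1 is higher in the cells with more.

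Tagln, Myl9, Tpm1 and Tpm2 were higher in the mutant dermal cells with Acta2 than in those without. Between mutant dermal cells with an Acta2 UMI (2017) and those without (2779), 4 of the 5 other genes of the set with at least 10 CPM in both sets were higher in the cells with Acta2, beside 0.984% of all 8127 genes, and none was lower, beside 5.39% of genes. Tagln had 558.1 CPM in cells with Acta2 and 192.8 CPM in cells without, a ratio of 2.90 (2.73 to 3.07). Myl9 had 420.8 and 182.1 CPM, a ratio of 2.31, Tpm1 1498 and 779.8 CPM (1.92), and Tpm2 402.4 and 206.7 CPM (1.95). Cald1 was within 1.5-fold, at 1071 and 940.4 CPM (1.14). Tpm1 and Tpm2 thus varied with Acta2 among the mutant cells although they were within 1.5-fold between the libraries, and Cald1 did the reverse. In control dermal cells the same 4 genes passed, beside 1.04% of genes that were higher and 2.46% that were lower, with ratios of 3.52 for Tagln, 2.54 for Myl9, 1.77 for Tpm1 and 1.69 for Tpm2, and Cald1 was at 1.31.

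The order held over the number of Acta2 UMIs. Mutant dermal cells with 0, 1, 2 and at least 3 Acta2 UMIs numbered 2779, 783, 398 and 836. Over these ranges Tagln stood at 192.8, 359.3, 506.7 and 768.7 CPM, Myl9 at 182.1, 286.5, 361.8 and 574.6 CPM, and Tpm1 at 779.8, 1259, 1375 and 1781 CPM. Each of these genes was highest in the cells with at least 3. Cnn1 stood at 1.20, 3.41, 3.35 and 14.4 CPM over the ranges, and Actg2 at 0.240, 1.70, 3.35 and 6.78 CPM. The unthinned median depth of these cells was 5571, 6481, 6923 and 7243 UMIs, and its part in this order was not tested beyond the thinning. In control cells (6724, 1038, 344 and 321) Tagln stood at 41.3, 91.8, 151.2 and 312.6 CPM and Tpm1 at 1033, 1625, 1957 and 2324 CPM. Tagln was therefore higher in mutant than in control cells at each number of Acta2 UMIs, and Tpm1 lower.

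**Figure D5:**
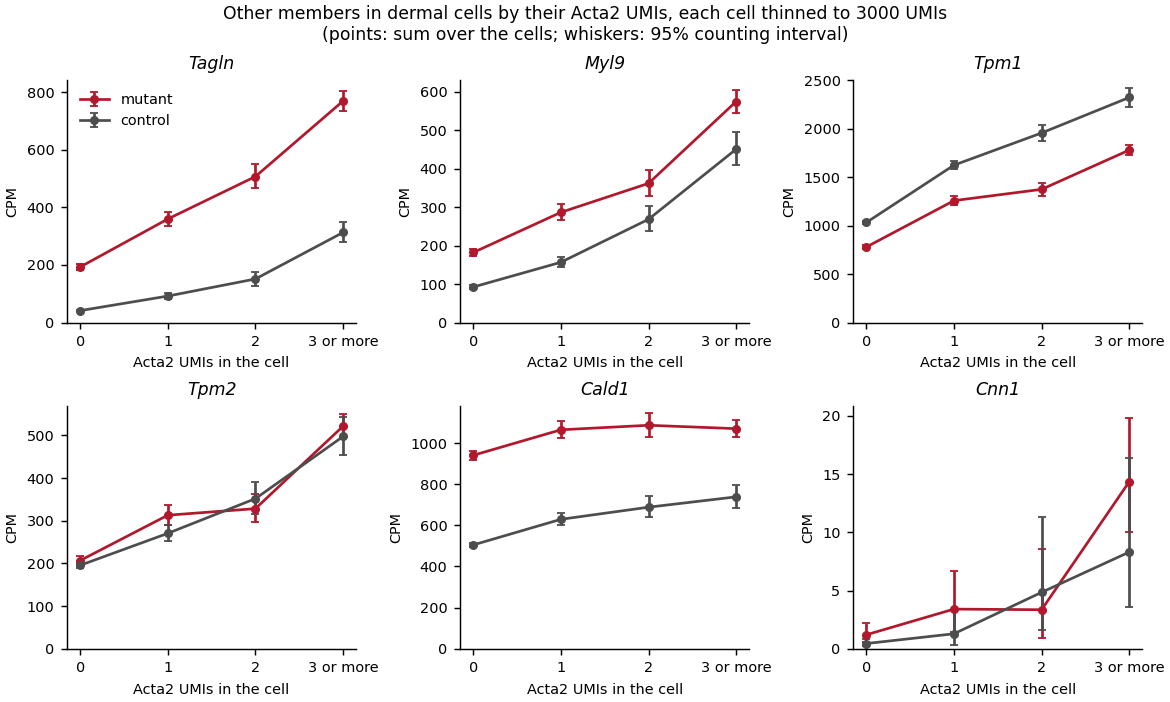
Levels of Tagln, Myl9, Tpm1, Tpm2, Cald1 and Cnn1 in CPM in dermal cells with 0, 1, 2 and at least 3 Acta2 UMIs after thinning to 3000 UMIs, in the mutant and the control library, with exact Poisson 95% intervals. Tagln reaches 768.7 CPM in mutant and 312.6 CPM in control cells with at least 3 Acta2 UMIs, and Tpm1 1781 and 2324 CPM.

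The link between Acta2 and the other genes was also present inside single clusters. In cluster 3, Tagln had 596.1 CPM in cells with Acta2 and 230.3 CPM in cells without (2.59, 2.31 to 2.90). In cluster 5 it had 661.8 and 236.7 CPM (2.80), and in cluster 8, the cluster led by Gal and Cdkn1a, 646.8 and 176.4 CPM (3.67). Myl9 had ratios of 2.27, 2.20 and 2.79 in clusters 3, 5 and 8, and Tpm2 1.60, 1.85 and 2.71. Tpm1 was within 1.5-fold in cluster 3 (1.49) and past it in clusters 5 and 8 (2.09 and 2.88). Cald1 had ratios of 1.11, 1.22 and 1.14. By cell, a Tagln UMI was found in 64.4% of mutant dermal cells with Acta2 and 34.1% of those without, and in 25.1% and 9.49% of control dermal cells.

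The summed mural markers were not higher in the Acta2-rich dermal cells, although some rare single markers had higher values there. A UMI of any of 7 mural genes (Rgs5, Kcnj8, Abcc9, Cspg4, Notch3, Higd1b, Ndufa4l2) was found in 8.37% of mutant dermal cells with at least 3 Acta2 UMIs, in 12.4% of those with 0, and in 70.2% of mutant mural cells. The 836 Acta2-rich mutant cells held 2 UMIs of Rgs5, 0 of Ndufa4l2 and 0 of Higd1b, and had 71.0 CPM of the fibroblast gene Pdgfra, against 117.5 CPM in cells with 0 Acta2 UMIs. Heyl, a Notch target, had 3.19 CPM (8 UMIs) in the Acta2-rich cells and 0.480 CPM (4 UMIs) in cells with 0, and Rasl12 had 1.99 CPM (5 UMIs) and 0.840 CPM (7 UMIs). Kcnj8 was lower, at 9.17 and 16.8 CPM. The summed level of the 12 mural markers was 104.5, 129.0, 104.7 and 100.1 CPM in mutant cells with 0, 1, 2 and at least 3 Acta2 UMIs, and 105.9 CPM in all mutant against 115.0 CPM in all control dermal cells. Pdgfrb made up much of this sum, so the sum follows the other markers only in part. It had 53.4 CPM in the Acta2-rich mutant cells, 49.3 CPM in all mutant dermal cells and 282.7 CPM in mutant mural cells. Without dermal cells that held a UMI of the 7 genes (leaving 4055 mutant and 6872 control cells), the mutant over control ratio was 3.96 for Acta2 and 6.19 for Tagln. This filter could not remove every mural cell. After thinning, 70.2% of mutant and 54.2% of control mural cells held such a UMI. The 7 genes were also among the markers that named the classes, so their low levels in dermal cells were partly set by the naming. Striated muscle genes summed to 39.3, 40.0, 29.3 and 25.5 CPM over the ranges of Acta2, and markers of muscle cells to 31.7 CPM in mutant and 41.3 CPM in control dermal cells. Hemoglobin transcripts summed to 1176 CPM in mutant and 174.3 CPM in control dermal cells. Leaving out dermal cells with at least 1% hemoglobin UMIs kept 5140 of 5145 mutant and 8713 of 8714 control cells and so could hardly move a ratio, and the part of hemoglobin RNA in the result was not tested.

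Other smooth muscle genes differed less evenly. Of 21 listed, 7 had at least 10 CPM in dermal cells of both libraries, and of these Csrp1 (88.9 CPM in mutant and 50.3 CPM in control cells, 1.77-fold), Vcl (67.6 and 43.6 CPM, 1.55-fold) and Nexn (25.9 and 17.1 CPM, 1.52-fold) were higher in the mutant. Csrp1 encodes a LIM protein that binds actinin, Vcl the adhesion protein vinculin and Nexn an actin-binding protein. Itga8, an integrin chain, was lower, at 10.6 CPM in mutant and 21.3 CPM in control cells (0.495). A further 4 passed through 1 library only. Pdlim3, a PDZ and LIM protein of the actin cytoskeleton, had 39.4 CPM in mutant and 0.222 CPM in control dermal cells (1273 and 14 UMIs), or a ratio of 177 (105 to 325). The other 3 were Fhl2 (14.8 and 5.62 CPM), Mylk, the kinase of myosin light chains (13.04 and 7.72 CPM), and Pgm5 (7.53 and 22.4 CPM). Myocd, the muscle-specific cofactor of SRF, was hardly caught, with 6 UMIs over all mutant and 15 over all control dermal cells. Srf itself had 10.6 CPM in mutant and 7.82 CPM in control cells, and 0 of 2 measured genes of SRF and its cofactors passed 1.5-fold.

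The non-muscle relatives of the contractile genes were mostly level. Of 13 listed, 12 had at least 10 CPM in dermal cells of both libraries, 2 were higher in the mutant and 10 lay within 1.5-fold. Tagln2, the non-muscle relative of Tagln, had 268.4 CPM in mutant and 47.4 CPM in control dermal cells, or a ratio of 5.66 (5.43 to 5.90), close to that of Tagln. Myh9, a non-muscle myosin heavy chain, had 39.0 and 22.8 CPM (1.71). Actb, the non-muscle β-actin, had 4207 and 4027 CPM (1.05), and Cnn2, a non-muscle calponin, 315.9 and 213.0 CPM (1.48). Among 9 measured TGFβ and YAP target genes Tnc was higher (16.4 and 10.8 CPM) and Tgfbi lower (14.1 and 34.6 CPM). Of 9 measured genes that dissociation is known to induce, 4 were higher in the mutant (Junb, Egr1, Ier2 and Btg2), beside 4.45% of all 8156 genes. In dermal cells without an eYFP UMI, the whole list of such genes summed to 1204 CPM in mutant and 926.1 CPM in control cells. The part of these genes in the result was not tested.

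Beyond the contractile genes, mutant dermal cells with Acta2 had more genes lower than higher, 438 against 80 of 8127. Of 9 condensate genes with at least 10 CPM in both sets, 7 were lower in cells with Acta2 and 2 within 1.5-fold, beside the 5.39% of all genes given above. Gal, a neuropeptide gene, had 14.4 CPM in cells with Acta2 and 126.7 CPM in cells without, the cell cycle inhibitor Cdkn1a 93.0 and 270.0 CPM, and Foxd1 41.1 and 119.3 CPM. Lef1 went with them, at 20.2 and 114.4 CPM. The Hedgehog targets Ptch1, Gli1 and Hhip were within 1.5-fold, 3 of 3, with Ptch1 at 199.1 and 275.4 CPM and Hhip at 158.7 and 111.2 CPM. Of the other smooth muscle genes, 2 of 8 were higher in cells with Acta2, Nexn (31.4 and 16.6 CPM) and Vcl (82.1 and 54.7 CPM). Cnn2, at 378.4 and 249.5 CPM, was the 1 of 12 non-muscle relatives that passed.

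Ranked over all genes other than the 9, mutant dermal cells with at least 2 Acta2 UMIs (1234) had the largest excess over cells with 0 for Cxcl14, a chemokine gene, at 501.4 and 221.4 CPM (2.26-fold). Timp3, an inhibitor of matrix proteases, had 162.6 and 87.2 CPM, Hes1, a Notch target, 145.1 and 82.9 CPM, and Phgdh, an enzyme of serine synthesis, 209.1 and 121.1 CPM. Gm5084, Rgcc, Gm49708 and Slc1a3 were the others among the 8 highest, with ratios of 2.23, 2.03, 1.89 and 1.84. The 5 lowest were Gal (9.18 and 126.7 CPM), Trps1 (7.02 and 71.2 CPM), Lef1 (14.9 and 114.4 CPM), Nrgn (14.0 and 61.6 CPM) and Cdkn1a (80.8 and 270.0 CPM). In all, 1.43% of 8138 genes were higher and 8.7% lower. In control dermal cells (665 with at least 2 Acta2 UMIs and 6724 with 0) the highest were Col8a1, Veph1, Egfl6, Efemp1, Col12a1, Smoc2, Fbln5 and Sfrp1. The lowest were Calb1, Casz1, Nrgn, Ass1 and Pakap. There 2.63% of 8178 genes were higher and 5.34% lower. Nrgn was the 1 gene on both lists.

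Across cell classes, Acta2 had a pattern close to that of Tpm2. Over 19 sums of a class in a library, the Pearson correlation with Acta2 on the log2(CPM + 1) scale was 0.91 for Tpm2, the highest of 5138 genes. Col26a1 (0.90), Epha3 (0.90), Notch3 (0.89), Dlk1 (0.89) and Rian (0.89) came next. Tagln ranked 13th (0.87), Tpm1 33rd (0.81), Myl9 309th (0.59) and Cald1 536th (0.50). These sums share libraries and classes, so the correlations are a description. Myl9 had high levels in glial cells and Cald1 in epidermal cells (674.3 CPM in mutant and 496.6 CPM in control cells), where Acta2 was low.

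The 9 genes lie on 6 chromosomes of the GRCm38 build, in GENCODE M21. Acta2 is at 34241090 to 34255590 on the minus strand of chromosome 19, Tagln at 45929619 to 45936058 on the minus strand of chromosome 9, and Myl9 at 156775420 to 156781658 on the plus strand of chromosome 2. Cald1 is at 34598500 to 34775473 on the plus strand of chromosome 6. Tpm1, at 67022590 to 67049406 on the minus strand of chromosome 9, shares that chromosome with Tagln and with Cnn1, at 22099216 to 22109630 on the plus strand. Tpm2 is at 43514711 to 43523765 on the minus strand of chromosome 4, Myh11 at 14194535 to 14291372 on the minus strand of chromosome 16, and Actg2 at 83512905 to 83536265 on the minus strand of chromosome 6. All 9 are protein-coding genes in that annotation.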

How the data were processed

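Per the labels' protocols, flank skin of E13.5 littermates was dissociated in 0.25% trypsin (20 minutes, 37 °C), 2 to 3 embryos were pooled per group, cells were stained with DAPI and sorted, and 10x Genomics 3′ libraries were made in parallel and sequenced on the same NovaSeq lane. What the authors deposited is 1 matrix of raw UMI counts per library, in whole numbers with no scaling. Per the submitters' processing notes, the authors used Cell Ranger 5.0.1 and mm10, and per the file headers an eYFP feature was added. The lowest deposited total of a barcode was 500 UMIs. Whether counting used introns or strand is not given in the sources used here. Gene identifiers were matched to GENCODE M21 (32158 of 32286).

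Barcodes with at least 1000 genes and at most 10% mitochondrial UMIs were kept (8783 mutant, 12120 control), and Scrublet called 269 (3.06%) and 593 (4.89%) of them doublets, which were left out. Counts were scaled to 10000 per cell and logged, the 9 genes were removed, and 2000 variable genes, 30 principal components, 15 neighbours and Leiden resolution 1 gave joint clusters without batch correction. Naming used 12 marker lists, none with the 9 genes, and gave 10 classes, so the names are marker calls. The mural class is cluster 18, led by Gucy1a1, Ndufa4l2 and Cox4i2. Class sums were scaled to 1000000 (CPM). Ratios carry exact conditional binomial, levels exact Poisson and shares exact Clopper-Pearson 95% intervals, and they are for counting error only. UMIs of 1 cell and cells of 1 pool are not independent draws, so the spread between embryos is not in them. No test was run between groups of 1 library each. Counts of cells by Acta2, Ptch1 or condensate genes, and the levels in such cells, used cells thinned to 3000 UMIs. The thinned cells parted by Acta2 share the Acta2 count, so only other genes were compared. The rule for named genes took the 9 genes, listed genes past the minimum and the fold (or defining markers), the 8 highest and 5 lowest by log2 ratio with 5 CPM added among genes with at least 50 CPM in cells with at least 2 against 0 Acta2 UMIs, and the 6 genes most correlated with Acta2 over class sums of at least 50 cells. Promoter windows came from RefSeq (GRCm38.p6). The 9 genes, the lists and the settings were chosen with earlier results of these data known. Clustering used scanpy 1.11.5 with igraph 0.11.9, leidenalg 0.10.2 and scikit-learn 1.9.0; tables, intervals and figures used Python 3.11.15 with pandas 2.3.3, numpy 2.4.6, matplotlib 3.10.9 and scipy 1.17.1. The counting of calls was tested on simulated data.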

Additional observations from a re-analysis of the deposited data

Results flagged for a closer look

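For 2 of the genes, the mutant over control ratio ran in opposite directions in 2 cell classes, each with an interval for counting error on its own side of 1. The difference between the classes was not tested, since each class came from 1 library per group. Acta2 was 3.81-fold higher in mutant dermal cells (481.8 CPM in mutant and 126.6 CPM in control cells), and in mural cells its ratio was 0.914, with 1910 CPM in mutant and 2091 CPM in control cells. Tpm1 had a ratio of 0.948 in dermal cells (1127 CPM in mutant and 1189 CPM in control cells), of 1.03 in muscle cells (1061 and 1029 CPM) and of 1.24 in epidermal cells (488.2 and 395.0 CPM). Apart from the dermal ratio of Acta2, these ratios all lie within 1.5-fold. The dermal ratio of Tpm1 came out at 1.05 in the cells with no UMI of Ptch1, Gli1, Hhip or eYFP, so its direction depended on the cells taken.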

How the results depend on the processing

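Of 369 alternative values for single genes, 288 moved by less than their counting interval, 81 moved by more and 0 called values changed sign. The dermal mutant over control ratio ran between 2.65 and 4.07 for Acta2, 3.37 and 6.53 for Tagln, 1.78 and 2.65 for Myl9, 1.31 and 1.99 for Cald1, 0.907 and 1.05 for Tpm1, and 1.24 and 1.34 for Tpm2. The lowest values for Acta2, Tagln, Myl9 and Cald1 came from the clusters that both libraries filled. That subset, the cells with no UMI of Ptch1, Gli1, Hhip or eYFP, and the values within single clusters were chosen after seeing the data. The count of genes higher in mutant dermal cells was 4, became 7 with no CPM minimum, and was 3 at a ratio of at least 2 and in both added subsets. In mural cells the count of 1 became 0 with doublets kept, with at least 1500 genes, with the 9 genes among the variable genes and with TMM scaling. Counting also the genes that passed through mural cells only, 6 genes among mutant and 7 among control cells were higher in mural than in dermal cells under all 10 alternatives. Over all genes measured, 8.78% and 9.14% were higher in mural cells. The counts of 6 and 7 include Myh11 and Actg2, so their steadiness was partly set by the minimum. With 10 CPM asked for in both classes they were 4 and 5, and this was not repeated under the alternatives. The share of dermal cells with an Acta2 UMI was 34.2% for mutant and 14.9% for control cells at 2000 UMIs, and 51.1% and 31.0% without thinning. The Tagln ratio of mutant dermal cells with over without Acta2 was 2.90. It was 3.55 at 2 or more Acta2 UMIs, 2.59 within cluster 3 and 3.67 within cluster 8, and the Acta2 ratio was 3.23 with cells parted by Tagln. In control cells it was 5.54 at 2 or more Acta2 UMIs, against 3.52. Why these values moved was not tested. No paired analysis was possible because there is 1 library per group, and for the same reason no replicate could be left out. Depth limits Cnn1, Myh11 and Actg2, which rest on 12 to 142 UMIs in dermal and 6 to 84 UMIs in mural cells.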
